A study of Mus musculus with 13 samples.

Results

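The comparison described here is the change over the full course in mouse Kdm3b knockout (KO) cells, day 10 against day 0 of treatment, and it rests on the 4 libraries whose titles name KO with day 10 or with DMSO, out of 13 in the series. The cells were pre-iPSCs, stalled intermediates of the conversion of mouse embryonic fibroblasts (MEFs) to induced pluripotent stem cells. Each group held 2 libraries, lettered A and B: KO and wild type (WT) cells at day 0, day 2 and day 10 of ascorbic acid at 50 µg/mL with CHIR-99021, an inhibitor of the kinase GSK3, and PD-0325901, an inhibitor of the kinase MEK (together AA+2i), and 1 library came from V6.5 mouse embryonic stem cells (ESCs). All cultures, those of day 0 included, were grown with 15% FBS and leukaemia inhibitory factor (LIF), a cytokine that keeps mouse stem cells undifferentiated. The day 0 libraries are titled DMSO although their treatment label names AA+2i, and they were read as the untreated start. The labels name neither the KO allele nor the number of clones, and do not say whether A and B were separate cultures, so the p-values measure only the spread between these libraries, which may be technical.

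Kdm3b is a demethylase that removes methyl groups from lysine 9 of histone H3 (H3K9), a mark of silenced chromatin. Enzymes of its class use iron, and ascorbic acid helps to keep them active. In mouse stem cells, MEK inhibition lowers signalling through the kinase ERK and GSK3 inhibition stabilises β-catenin of the Wnt pathway, and together with LIF they hold cells in the naive state, the pluripotent state of the early epiblast.

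The 4 libraries held 16005002 to 22283033 counts assigned to genes, and the replicates correlated across genes at r = 0.976 at day 0 and 0.988 at day 10. The letters A and B differed in a way that depended on transcript length at day 0 (Spearman across genes, A minus B against length, -0.400) and not to a like degree at day 10 (0.0516). The count-weighted mean transcript length was 3073 bases in day 0 replicate A, 3879 in day 0 replicate B, 3360 in day 10 replicate A and 3325 in day 10 replicate B. No untreated cells were carried to day 10, so 10 days of culture, the split at day 4 and the treatment cannot be told apart, and neither can the set of libraries and the time point. Bulk counts also cannot tell fewer cells of a kind from less RNA per cell.

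Over 10 days the KO cells gained transcripts of naive and general pluripotency genes, epithelial genes, metallothioneins and the imprinted gene Peg10, and lost transcripts of ERK target genes and of cholesterol synthesis genes. Of 14324 genes tested with edgeR's quasi-likelihood test, 2165 (15.1%) passed a false discovery rate (FDR, the Benjamini-Hochberg adjusted p over all genes tested) of 0.05, the threshold used throughout. Of these, 1422 were higher at day 10 (9.93%) and 743 lower (5.19%). These shares over all genes tested are the background to every count of called list members below. The genes called higher had a median log2 fold change of 2.32 and those called lower of -1.25, beside -0.01 over all genes tested. A log2 fold change of at least 3 in size was fitted for 549 of the genes called higher and 87 of those called lower. Many of the risen genes started from almost nothing: 139 had no count in either day 0 library and 182 had 1 to 3 counts over both. For such genes the text gives the ratio of pooled CPM (counts scaled to the library total) with its 95% counting interval, or, where day 0 held no count, a lower bound that puts 3 counts in the day 0 group. Intervals and bounds cover counting error only.

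How many genes passed depended on the libraries in the fit. Without KO day 10 replicate A the test called 813 genes higher and 232 lower, without KO day 10 replicate B 908 and 220, without KO day 0 replicate A 815 and 496, without KO day 0 replicate B 953 and 294, and without WT day 10 replicate B 1129 and 446. When the spread was estimated from the 4 compared libraries alone it called 662 and 220, of which 880 were among the 2165, and none of the 2165 changed sign as a call under any setting. With an offset for transcript length in each library it called 1469 higher and 1510 lower, so that the share of higher genes among the calls went from 65.7 to 49.3%, and that offset moved the median of all genes to -0.15.

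**Figure D1:**
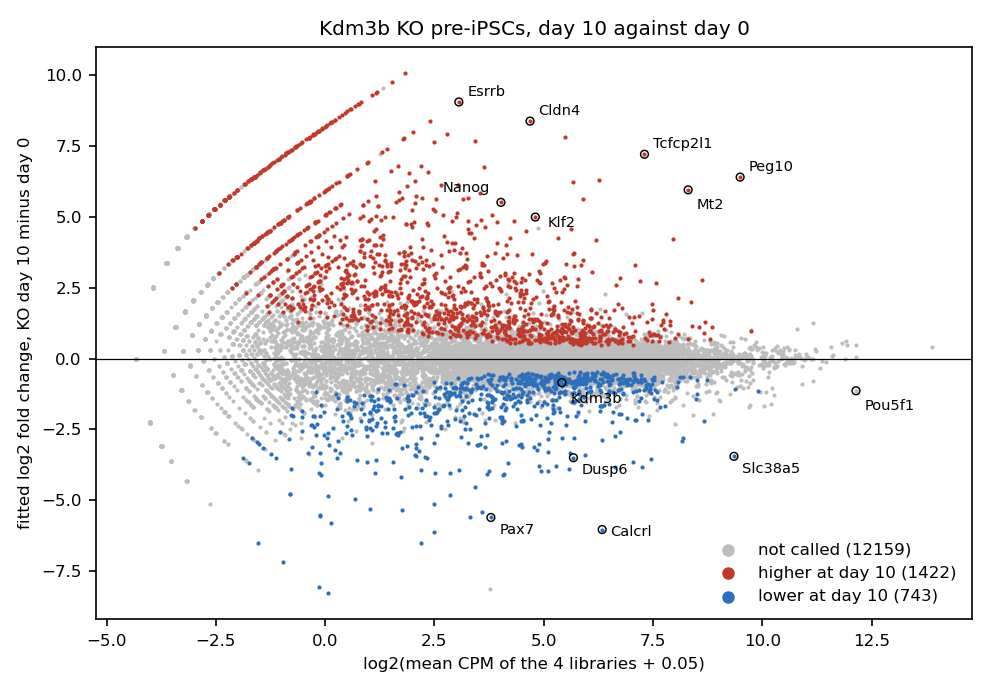
Fitted log2 fold change from day 0 to day 10 in KO cells (vertical axis) against the log2 mean CPM of the 4 KO libraries plus 0.05 (horizontal axis), 1 point per tested gene, with 1422 genes called higher in red and 743 called lower in blue. The bands at the left are genes with 0 or a few counts at day 0, whose fitted values depend on the prior count, and Peg10, Tcfcp2l1 and Mt2 combine high levels with large rises.

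Kdm3b itself was read in every library. It stood at 44.4 and 65.1 CPM in the day 0 KO libraries A and B and at 19.6 and 41.4 CPM in those of day 10. The levels at day 10 lay below both day 0 values, and the difference did not pass the test (log2 fold change -0.85, SE 0.37, FDR 0.18). In WT cells Kdm3b averaged 216 CPM at day 0 and 193 CPM at day 10, so all 4 KO libraries lay well below the WT means. The count covers the whole gene, and reads from a KO allele that is still transcribed are part of it.

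The enzymes that write, read and erase H3K9 methylation changed little as a group. Of 21 tested genes 1 passed, Suv39h1, which methylates H3K9 in heterochromatin, at 114 and 125 CPM on day 0 and 78.3 and 85.8 CPM on day 10 (log2 fold change -0.55, SE 0.15, FDR 0.040), and the list's median was -0.06. In the DNA methylation machinery 3 of 13 genes passed, where 15.1% of all genes tested did. The de novo methyltransferase Dnmt3b rose from 8.47 and 8.59 to 19 and 12.9 CPM. Its cofactor Dnmt3l went from no count to 81 counts over both day 10 libraries, at least 33.7-fold higher. Zfp57, which protects methylation at imprinted loci, fell from 240 and 428 to 88.3 and 122 CPM (log2 fold change -1.67, FDR 0.033). Among 16 Polycomb genes the subunits Jarid2 and Cbx7 rose, Cbx7 from 0.0974 and 0.345 to 4.46 and 1.87 CPM, and Phf19 and Mtf2 fell, Phf19 from 38.3 and 44.5 to 14.3 and 11.6 CPM. The calls for Suv39h1, Dnmt3b, Dnmt3l, Zfp57 and Mtf2 were lost when 1 library was left out (FDR 0.0546 to 0.234), of the KO day 0 and day 10 libraries and, for Zfp57 and Suv39h1, also of WT day 10 (for Suv39h1 also any of WT day 0 and day 2 and KO day 2 replicate B).

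Most naive pluripotency genes rose. Of 18 tested, 12 rose, 1 fell and 5 did not pass, with a median log2 fold change of 2.82. Nanog, a core transcription factor of the pluripotency network, stood at 0.730 and 0.642 CPM in the day 0 libraries and at 32.5 and 30.9 CPM in the day 10 libraries (log2 fold change 5.51, SE 0.38, FDR 7.7e-05). Both day 10 values lay far above both day 0 values, and the replicates nearly coincided. Tcfcp2l1, a naive factor that acts downstream of LIF and Wnt signals, went from 1.51 and 2.71 to 284 and 344 CPM (log2 fold change 7.21, SE 0.43, FDR 4.8e-05). Klf2, a Krüppel-like factor of naive cells, went from 1.75 and 1.63 to 57.6 and 50.8 CPM (log2 fold change 5.0, SE 0.20, FDR 8.6e-06), and its relative Klf5 from 5.50 and 6.27 to 42.6 and 34.7 CPM. Esrrb, an orphan nuclear receptor that maintains self-renewal, had 1 count over both day 0 libraries and 537 over both day 10 libraries, a ratio of 670 (95% interval 120 to 26500), with 24.6 CPM in replicate A and 8.44 CPM in replicate B.

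Other naive genes rose less evenly between the replicates. Tbx3, a T-box factor, reached 12.1 CPM in replicate A and 5.42 CPM in replicate B from 0.341 and 0.592 CPM. Zfp42, also known as Rex1 and a common marker of naive cells, reached 9.79 and 2.59 CPM from 0.876 and 0.740 CPM. Replicate A was the higher of the 2 day 10 libraries for each of these, as for Esrrb. Dppa3, a maternal factor also called Stella, and Prdm14, a repressor of differentiation genes, had no count at day 0 and were at least 23.3-fold and at least 17.5-fold higher. Tcl1, a coactivator of the kinase AKT, had a ratio of 31.8 (95% interval 8.36 to 270.0). Sox15 and the cell cycle regulator Mybl2 rose by 2.15 and 0.84 on the log2 scale. Fgf4, the main ligand that drives ERK signalling in ESCs, was the member that fell, from 104 and 143 to 49.7 and 57.3 CPM. Klf4, Nr0b1, Nr5a2, Fbxo15 and Tet2 did not pass.

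In the list of genes shared by naive and other pluripotent cells, 9 of 17 rose and 1 fell (median log2 fold change 0.87). Dppa5a, an RNA-binding protein of pluripotent cells, rose from 0.536 and 0.247 to 115 and 64.4 CPM (log2 fold change 7.81, SE 0.66, FDR 0.00016). Tdgf1, the Nodal co-receptor Cripto, rose from 4.24 and 3.65 to 94.9 and 57.0 CPM. The TGF-β family ligand Gdf3 reached 40.9 and 35.6 CPM from 1.07 and 1.58 CPM. Lin28a, which blocks let-7 maturation, and Utf1, a chromatin factor of ESCs, had no day 0 count and were at least 55.3-fold and at least 18.7-fold higher. Dppa2 and Dppa4, which act as partners in early embryonic cells, rose by 3.14 and 1.92 on the log2 scale and ended at 1.08 to 3.35 CPM. Jarid2, a Polycomb subunit, rose by 0.75 on the log2 scale and Phc1, another one, fell by 1.09. Leaving out 1 library of KO day 0, KO day 10, WT day 2 or WT day 10 lost the calls for Zfp42, Mybl2, Fgf4, Dppa4, Jarid2 and Phc1 (FDR 0.0509 to 0.218), while the other 16 genes named as called in both lists passed in every such fit.

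The levels that these genes reached were mostly far below those of WT cells at the same day. Over the 21 genes that rose in either list, the day 10 mean in KO was 2.4 to 106% of that in WT, with a median of 7.88%. At day 10, 20 of the 21 were lower in KO than in WT, where 19.9% of all genes tested were lower and 32.3% differed in either direction, and Jarid2 alone did not differ by the test (FDR 0.81). Nanog averaged 302 CPM in WT at day 10 and 314 CPM in the single ESC library. Tcfcp2l1 came nearer to WT, at 44.6% of the WT mean of 704 CPM, and lay above the 140 CPM of the ESC library. Zfp42 averaged 194 CPM in WT at day 10 against 2.59 to 9.79 CPM in the KO libraries.

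**Figure D2:**
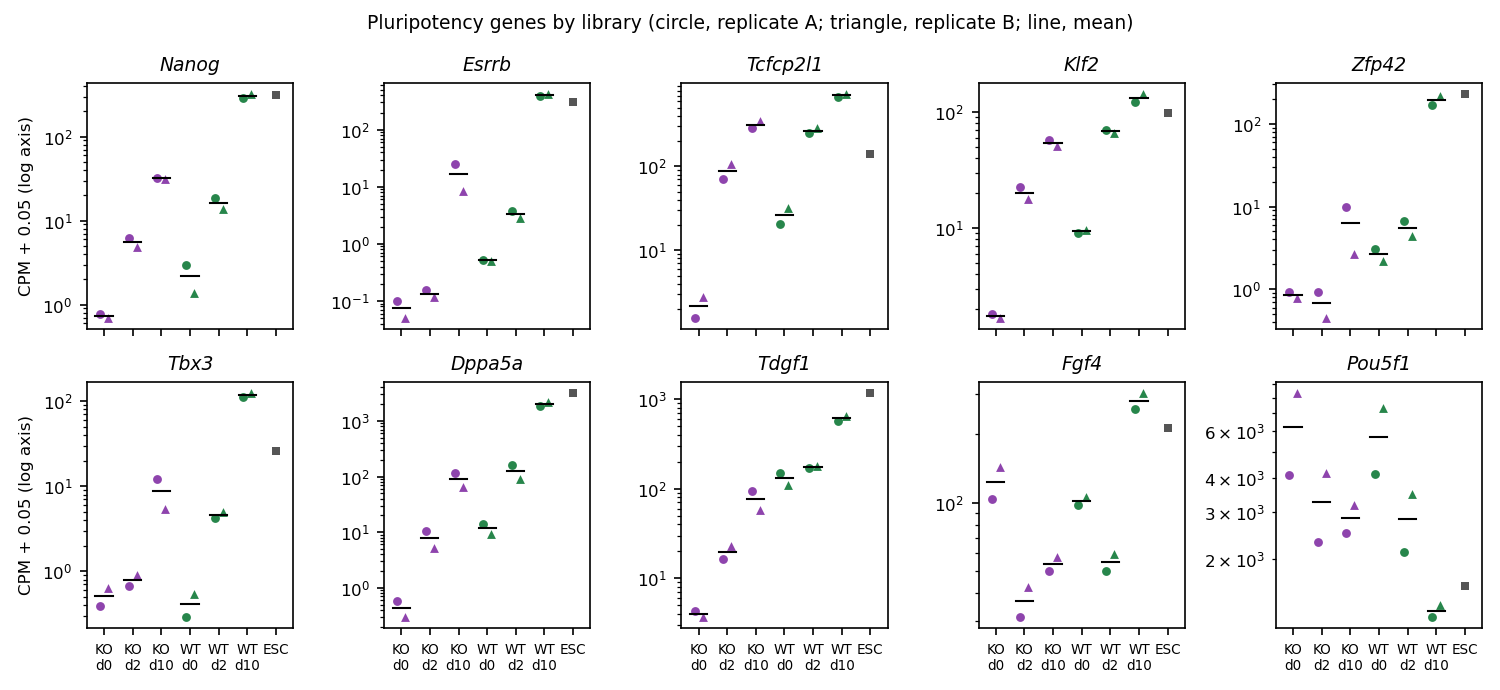
CPM plus 0.05 on a log axis for 10 pluripotency genes in each library, KO in purple, WT in green and the ESC library in grey, with a line at each mean of 2. Between day 0 and day 10 in KO 8 genes rose, Fgf4 fell and Pou5f1 did not pass; Nanog reached 32.5 and 30.9 CPM in KO and 302 CPM on average in WT.

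Of 6 tested reprogramming factors 1 fell and 5 did not pass. The files give 1 value per gene, so transcripts from a transgene, if the cells carry one, are not separated. Pou5f1, the factor Oct4, stood at 4120 and 8299 CPM at day 0 and at 2490 and 3170 CPM at day 10 (log2 fold change -1.13, SE 0.53, FDR 0.21). Klf4 had 977 and 2527 CPM at day 0 and 618 and 820 CPM at day 10 (FDR 0.23). Myc had 736 and 1794 CPM at day 0 and 328 and 450 CPM at day 10 (FDR 0.090). For these 3 genes both day 10 libraries lay below both day 0 libraries, as for 24.3% of all genes tested, and day 0 replicate B held more than replicate A. Sox2 had 208 and 450 CPM at day 0 and 207 and 209 CPM at day 10 (FDR 0.44). Mycn, a Myc relative of ESCs, was the 1 of 6 that passed, from 46.7 and 51.5 to 20.8 and 23.3 CPM (log2 fold change -1.16, SE 0.15, FDR 0.0014), and Mycl1 did not pass.

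LIF acts through the receptor subunit gp130 and the factor STAT3. Of 13 genes in this pathway 4 rose and 2 fell, with a median of 0.20, where 9.93% of all genes tested rose and 5.19% fell. Stat3 itself rose from 126 and 125 to 283 and 292 CPM (log2 fold change 1.20, SE 0.15, FDR 0.0013). Socs3, a feedback inhibitor that STAT3 induces, rose from 128 and 152 to 237 and 262 CPM. The kinase Jak2 and the coactivator Bcl3 rose by 0.58 and 0.73 on the log2 scale. Osmr, the receptor subunit for oncostatin M, fell from 193 and 355 to 57.4 and 63.8 CPM, and the kinase Pim3 fell by 0.58. The calls for Socs3, Jak2, Bcl3, Osmr and Pim3 were lost when 1 library was left out (FDR 0.0507 to 0.246), of the KO and WT day 10 or KO day 0 libraries and, for Jak2, Bcl3 and Pim3, also of WT day 0 or day 2.

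ERK target genes fell and several Wnt target genes rose. Of 18 ERK targets 9 fell, the median log2 fold change was -0.87, and no rise was called by edgeR, limma-voom or DESeq2 or at an unadjusted p under 0.05. Dusp6, a phosphatase that switches off ERK, fell from 108 and 79.6 to 7.44 and 9.22 CPM (log2 fold change -3.50, SE 0.21, FDR 4.8e-05). Its relative Dusp4 fell from 69.7 and 80.7 to 7.5 and 13.8 CPM, and the transcription factor Etv4 from 150 and 155 to 44.7 and 37.4 CPM (log2 fold change -1.89, SE 0.16, FDR 0.00016). The feedback inhibitors Spry1, Spry4 and Spred1 fell by 2.37, 1.68 and 0.62 on the log2 scale, and Egr2, Phlda1 and Etv1 by 2.78, 1.39 and 0.74. Etv5 differed from Etv4, with 349 and 347 CPM at day 0 and 386 and 383 CPM at day 10 (FDR 0.75).

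Of 15 Wnt target genes 5 rose and 1 fell. The median was 0.99, or 0.76 with low-count genes at their bound and 1 gene with too few counts left out. Axin2, a scaffold of the β-catenin destruction complex and a direct Wnt target, had 1 count at day 0 and 341 at day 10, a ratio of 425 (95% interval 75.8 to 16800), at 7.44 and 13.3 CPM. Nkd1, an inhibitor of Wnt signalling, rose from 0.292 and 0.296 to 3.97 and 3.38 CPM (log2 fold change 3.61, SE 0.40, FDR 0.00067). Notum, an enzyme that inactivates Wnt ligands, rose from 9.01 and 18.2 to 82.8 and 67.3 CPM. Tcf7, a DNA-binding partner of β-catenin, rose by 0.99 on the log2 scale and the receptor Tnfrsf19 by 2.04, while Nkd2 fell by 1.85. Lef1, Sp5, Cdx1, Lgr5 and 5 more did not pass. Single-library omissions lost the calls for Notum, Tcf7, Tnfrsf19, Nkd2, Egr2, Phlda1, Spry4, Etv1 and Spred1 (FDR 0.0506 to 0.257), for Etv1 and Spred1 also without a day 2 library, and those for the other 6 genes called in both lists passed in each.

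Epithelial genes rose in KO cells. Fibroblasts gain such genes, and lose mesenchymal ones, early in reprogramming. Of 18 tested 9 rose, which were all the calls by edgeR, with a median log2 fold change of 2.20; DESeq2 called 10 higher and 1 lower. Both day 10 libraries lay above both day 0 libraries for 15 of the 18, where this held for 28.0% of all genes tested. Cldn4, a tight junction protein, rose from 0.0487 and 0.247 to 55.9 and 46.7 CPM (log2 fold change 8.38, SE 0.71, FDR 0.00017). Cdh1, E-cadherin, the adhesion molecule of epithelia and of ESC colonies, rose from 5.11 and 9.48 to 111 and 77.0 CPM (log2 fold change 3.69, SE 0.56, FDR 0.0031). The surface protein Epcam rose from 10.2 and 15.8 to 84.4 and 74.2 CPM and Esrp1, which directs epithelial splicing, from 10.1 and 13.1 to 42.7 and 37.6 CPM. The keratin Krt8 reached 10.0 and 4.40 CPM, and its partner Krt18, with no day 0 count, was at least 44.9-fold higher. Marveld3 and Cldn7, both of tight junctions, rose by 3.99 and 2.92 on the log2 scale, and the epithelial transcription factor Grhl2 had a ratio of 21.2 (95% interval 3.32 to 886).

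Fibroblast and mesenchymal genes went in both directions. Of 23 tested 5 rose and 1 fell, where 9.93% of all genes tested rose and 5.19% fell. The median was 0.26, or -0.17 with low-count genes at their bound and 3 left out. Zeb2, a repressor of E-cadherin, rose from 7.40 and 7.45 to 23.2 and 23.0 CPM (log2 fold change 1.64, SE 0.18, FDR 0.00066). The transcription factors Prrx1 and Snai1 rose by 1.86 and 1.38, and the surface glycoprotein Thy1 and the collagen crosslinking enzyme Lox, with no day 0 count, were at least 15.8-fold and at least 4.57-fold higher at no more than 1.27 CPM. S100a4, a calcium-binding protein of fibroblasts, fell from 69.9 and 35.8 to 6.32 and 6.69 CPM. Vim, the intermediate filament protein vimentin, was at 912 and 695 CPM on day 0 and 1070 and 1047 CPM on day 10 (FDR 0.36). Twist2, Lum and Fap, which had too few counts to be tested, had no count in any of the 4 libraries. The 23 tested members summed to 2481 and 4618 CPM at day 0 and to 3683 and 3494 CPM at day 10. Among 14 collagen genes Col3a1 alone passed (median 1.04, or 0.96 at the bound), at least 39.1-fold higher from no count to 3.72 and 2.05 CPM. Without 1 library of KO day 0, KO day 10, WT day 2 or WT day 10, calls were lost for Grhl2, Prrx1, Snai1, Lox, S100a4 and Col3a1 (FDR 0.0512 to 0.269).

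Trophectoderm regulators, which mark the placental lineage, also rose, in 5 of 12 cases, which were all the calls by edgeR, with a median log2 fold change of 1.21; DESeq2 called 6 higher and 1 lower. Gata2 went from 0.779 and 0.790 to 8.12 and 8.62 CPM (log2 fold change 3.40, SE 0.32, FDR 0.00027) and Tcfap2c, the AP-2γ factor, from 25.9 and 25.2 to 60.6 and 60.0 CPM. Hand1, a factor of trophoblast giant cells, had no day 0 count and 2.23 CPM in both day 10 libraries, at least 30.3-fold higher. Gata3 and Ets2 rose by 1.83 and 0.63 on the log2 scale. Cdx2 and Eomes, which define trophoblast stem cells, did not pass. Of 13 primitive endoderm genes 1 passed, the laminin subunit Lamb1, which fell from 255 and 762 to 60.8 and 74.2 CPM (list median -0.18, or -0.23 at the bound).

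Among 9 genes of the primed epiblast, the state after implantation, 3 rose and 3 fell (median 0.17). Otx2, an epiblast transcription factor, had no day 0 count and reached 3.53 and 1.75 CPM, at least 35.7-fold higher. The Nodal antagonists Lefty1 and Lefty2 rose, Lefty1 with a ratio of 46.6 (95% interval 15.5 to 229) and Lefty2 from 0.146 and 0.197 to 15.1 and 3.07 CPM. Pou3f1, the factor Oct6 of primed and neural cells, fell from 10.8 and 10.2 to 2.36 and 1.51 CPM (log2 fold change -2.44, SE 0.30, FDR 0.0010), and Zic2 fell by 0.79 on the log2 scale beside Dusp6. In fits without 1 library of KO day 0, KO day 10, WT day 2 or WT day 10 the calls for Gata3, Ets2, Lamb1 and Zic2 were lost (FDR 0.0532 to 0.199).

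Germline genes are held silent in somatic cells by DNA methylation and H3K9 methylation of their promoters, and many carry the E-box CACGTG, which MAX and its partner MGA in a Polycomb-type repressor complex bind. Shown are the promoters of Hormad1, a component of the meiotic chromosome axis, and of Tdrd9, a helicase of the piRNA pathway that silences transposons. They were chosen because both genes rose, from 0 and 2 counts over both day 0 libraries, and both windows hold that motif. They are RefSeq sequences of build GRCm38.p6, from 250 bases before to 50 bases after the gene start, read 5′ to 3′ on the gene's strand (chr3:95559427-95559726, plus strand, and chr12:111971309-111971608, plus strand), with each CACGTG in capitals. The count files use mm9, so these positions are not theirs.
Hormad1: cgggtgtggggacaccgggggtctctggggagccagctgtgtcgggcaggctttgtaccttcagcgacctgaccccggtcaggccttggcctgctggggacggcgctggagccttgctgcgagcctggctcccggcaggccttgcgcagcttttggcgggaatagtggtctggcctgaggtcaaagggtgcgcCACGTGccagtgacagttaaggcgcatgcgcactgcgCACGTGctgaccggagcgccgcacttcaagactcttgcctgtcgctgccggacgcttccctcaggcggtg
Tdrd9: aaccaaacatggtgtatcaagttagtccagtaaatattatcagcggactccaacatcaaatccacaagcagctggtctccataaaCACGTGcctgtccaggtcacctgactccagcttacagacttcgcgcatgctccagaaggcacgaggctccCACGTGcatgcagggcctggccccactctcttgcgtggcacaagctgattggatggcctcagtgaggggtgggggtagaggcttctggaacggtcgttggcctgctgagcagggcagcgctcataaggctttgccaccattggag

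CACGTG, which reads the same on both strands, occurs in 7.24% of the 27025 RefSeq promoters of 300 bases (1 per gene), in 13 of the 19 germline list genes that have a promoter in the table, and in 3 of the 5 that rose. A match describes the letters only.

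Of 21 germline genes 5 rose and 1 fell in KO cells by edgeR, all 5 ending at low levels. DESeq2 called 3 higher and 1 lower, and limma-voom 6 higher and 1 lower. The median was 3.33, or 2.06 with low-count genes at their bound and 6 left out. Tdrd12, another piRNA pathway gene, had no day 0 count and reached 3.47 and 1.02 CPM, a rise of at least 30.3-fold (FDR 0.0032). Tdrd9 had 2 counts at day 0 and 51 at day 10, a ratio of 31.8 (95% interval 8.36 to 270.0), at 1.24 and 1.87 CPM. Dazl, an RNA-binding protein that licenses germ cells, was at least 15.4-fold higher at 1.86 and 0.422 CPM, and Hormad1 at least 7.07-fold higher at 0.806 and 0.241 CPM. Stk31 had 1 count and then 13, a ratio of 16.2 (95% interval 2.43 to 689). Stag3, a meiotic cohesin subunit, fell from 18.8 and 36.7 to 5.76 and 6.27 CPM. Ddx4, the germ cell helicase Vasa, had 0.243 and 0.148 CPM at day 0 and 0.0620 and 0.362 CPM at day 10 (FDR 0.97). In WT cells all 21 genes rose, where 21.0% of all genes tested did, Dazl to 204 CPM and Tdrd12 to 82.7 CPM on average. The count filter used all 6 groups, so genes with almost no counts in KO could be tested through their WT day 10 counts. The WT count is therefore partly set by the filter.

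Rhox6 and Rhox9, homeobox genes of a cluster on the X chromosome that is expressed in germline and placenta, had no count at day 0. Rhox9 reached 8.37 and 5.73 CPM (at least 95.6-fold higher) and Rhox6 6.82 and 4.58 CPM (at least 77.3-fold higher). These were 2 of 5 tested genes of the cluster (median 3.38, or 6.43 at the bound with 3 genes left out). The 3 left out had at most 3 counts over both libraries at each of the 2 KO times. Neither median therefore describes the cluster in KO cells. Rhox genes are near-identical to one another, so the sharing of reads between copies makes each value uncertain. Of 7 two-cell stage genes none passed in KO cells with edgeR, limma-voom or DESeq2, and 1 was lower at an unadjusted p under 0.05. In WT cells 4 of the 7 rose, where 21.0% of all genes tested did. The count filter over all 6 groups partly sets that WT count as well. Leaving out 1 library of KO day 0, KO day 10 or WT day 10 lost the calls for Dazl, Stk31, Hormad1 and Stag3 (FDR 0.0588 to 0.171).

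Interferon response genes encode antiviral sensors and effectors and carry the interferon-stimulated response element, with the core GAAA, any 2 bases, GAAA. Of 21 tested 6 rose, which were all the calls by edgeR, with a median log2 fold change of 0.55 also at the bound with 2 genes left out. Zbp1, a sensor of Z-form nucleic acids, rose from 0.292 and 0.247 to 4.71 and 4.22 CPM (log2 fold change 4.02, SE 0.32, FDR 0.00012). Irf7, the regulator that amplifies the interferon response, rose from 0.390 and 0.345 to 2.11 and 2.23 CPM, and Xaf1 from 11.6 and 9.67 to 19.9 and 20.7 CPM. Rsad2, the antiviral protein viperin, rose from 1.90 and 3.16 to 12.4 and 10.6 CPM. Oasl2 had a ratio of 58.6 (95% interval 10.0 to 2360) and the RNA sensor Ifih1 rose by 1.93 on the log2 scale. Isg15 stood at 0.195 and 0.592 CPM and then at 0.806 and 0.965 CPM (FDR 0.21). Among 12 antigen presentation genes the immunoproteasome subunit Psmb8 alone passed, with a log2 fold change of 2.57 (list median -0.24). Calls for Rsad2, Ifih1 and Psmb8 were lost without 1 library of KO day 0 or KO day 10 and, for Psmb8, of WT day 2 or WT day 10 (FDR 0.0505 to 0.157).

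The Rsad2 promoter is shown because the gene rose and its window holds the element (RefSeq, GRCm38.p6, chr12:26456403-26456702, minus strand). Capitals mark the element, here on the opposite strand.
Rsad2: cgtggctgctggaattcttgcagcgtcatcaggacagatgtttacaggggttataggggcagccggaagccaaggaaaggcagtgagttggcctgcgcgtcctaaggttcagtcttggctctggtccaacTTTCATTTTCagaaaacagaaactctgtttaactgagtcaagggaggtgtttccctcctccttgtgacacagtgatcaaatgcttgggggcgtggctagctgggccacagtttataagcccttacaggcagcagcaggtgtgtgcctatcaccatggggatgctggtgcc

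That core occurs on either strand in 3.49% of the 27025 promoters, in 9 of the 16 interferon list genes in the table, and in 2 of the 5 of those that rose. The Wnt-type core ATCAAAG occurs in 3.72% of all promoters in 1 of 10 Wnt target genes in the table, and in 0 of the 4 of those that rose.

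Metallothioneins are small proteins that bind zinc and copper, and their genes Mt1 and Mt2 lie next to each other, with starts 6471 bases apart in GRCm38.p6. Both rose steeply in KO cells. Mt2 stood at 12.9 and 7.16 CPM at day 0, averaged 196 CPM at day 2, and stood at 617 and 626 CPM at day 10 (log2 fold change 5.96, SE 0.68, FDR 0.00073). Mt1 stood at 33.2 and 17.2 CPM at day 0, averaged 152 CPM at day 2, and stood at 480 and 465 CPM at day 10 (log2 fold change 4.23, SE 0.61, FDR 0.0024). The day 10 replicates agree closely for both genes, and at day 0 replicate A was the higher. Slc30a2, a zinc transporter, rose from 1 count to 260, a ratio of 324 (95% interval 57.7 to 12900). The metal regulatory factor MTF-1 binds elements whose core can read TGCGCNC. Other forms of the core were not searched for and are not marked. The form TGCGCNC was looked for after the values were seen and occurs on either strand in 15.5% of promoters. It has 1 match in the promoter of Mt1 (chr8:94178839-94179138, plus strand) and 2 in that of Mt2 (chr8:94172368-94172667, plus strand), in capitals below. The Mt1 match and 1 of the 2 Mt2 matches lie after the gene start.
Mt1: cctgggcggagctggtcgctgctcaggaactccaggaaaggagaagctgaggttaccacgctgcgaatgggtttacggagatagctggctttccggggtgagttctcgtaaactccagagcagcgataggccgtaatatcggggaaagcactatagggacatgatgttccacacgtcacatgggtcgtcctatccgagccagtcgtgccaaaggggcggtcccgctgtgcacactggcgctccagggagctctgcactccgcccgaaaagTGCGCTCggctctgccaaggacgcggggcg
Mt2: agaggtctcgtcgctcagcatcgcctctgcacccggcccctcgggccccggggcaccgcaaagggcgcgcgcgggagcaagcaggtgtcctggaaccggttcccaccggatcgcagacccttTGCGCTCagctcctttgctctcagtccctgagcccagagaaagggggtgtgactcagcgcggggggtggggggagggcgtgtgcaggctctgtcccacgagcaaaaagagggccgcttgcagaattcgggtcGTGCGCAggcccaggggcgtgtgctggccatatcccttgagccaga

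In the list of chaperone and stress response genes that holds the metallothioneins, 7 of 16 rose, which were all the calls by edgeR (median 0.86); DESeq2 called 9 higher and 1 lower. Besides Mt1 and Mt2 they were mostly targets of NRF2, the factor that answers oxidative and electrophilic stress. Nqo1, a quinone reductase, rose from 14.3 and 6.71 to 74.3 and 80.6 CPM (log2 fold change 2.88, SE 0.49, FDR 0.0052). Gclm, a subunit of the enzyme that limits glutathione synthesis, rose from 40.3 and 32.9 to 95.7 and 103 CPM. Hspb1, a small heat shock protein, rose from 154 and 111 to 571 and 478 CPM. The haem oxygenase Hmox1 and the thioredoxin reductase Txnrd1 rose by 1.26 and 0.87 on the log2 scale, while the heat shock genes Hspa1a, Hspa1b, Hsp90aa1, Dnajb1 and Hsph1 did not pass.

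Glutathione transferases, which conjugate glutathione to electrophiles, rose in 5 of 16 cases, all the calls in the list (median 0.97, or 0.90 at the bound with 1 gene left out). Gsta3 went from 5.79 and 3.36 to 27.8 and 39.8 CPM and Gstp1 from 154 and 134 to 326 and 333 CPM. Mgst1, a membrane-bound member, went from 51.5 and 46.0 to 115 and 150 CPM after a mean of 181 CPM at day 2. Gsta1 had no day 0 count and was at least 37.4-fold higher at 2.60 and 2.89 CPM, and Gstk1 had a ratio of 14.1 (95% interval 4.44 to 71.9). Gsta and Gstp genes have near-identical relatives, so the split of reads among them is uncertain. Omitting KO day 0 replicate B, either KO day 10 library or WT day 10 replicate A lost calls for Hmox1, Txnrd1, Mgst1 or Gstk1 (FDR 0.0532 to 0.138).

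Imprinted genes are expressed from 1 parental allele. As a list they stayed near the median of all genes (4 of 20 rose, median 0.01), and Peg10 had the largest gain in mean CPM of all genes called higher. Peg10, a retrotransposon-derived gene needed for the placenta, went from 13.7 and 19.9 CPM at day 0 through a mean of 387 CPM at day 2 to 1492 and 1354 CPM at day 10 (log2 fold change 6.41, SE 0.34, FDR 4.0e-05). In WT cells it was high throughout, at 648 CPM on day 0 and 767 CPM on day 10. Its neighbour Sgce, which shares the promoter region, did not pass. Plagl1, a zinc finger factor, rose from 0.0974 and 0.197 to 6.26 and 2.95 CPM, Mest from 5.21 and 4.64 to 11.0 and 10.5 CPM, and the growth factor gene Igf2 from 10.3 and 13.1 to 26.3 and 29.9 CPM. The call for Igf2 was lost without KO day 0 replicate A (FDR 0.0561) and without KO day 10 replicate B (FDR 0.0567).

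**Figure D3:**
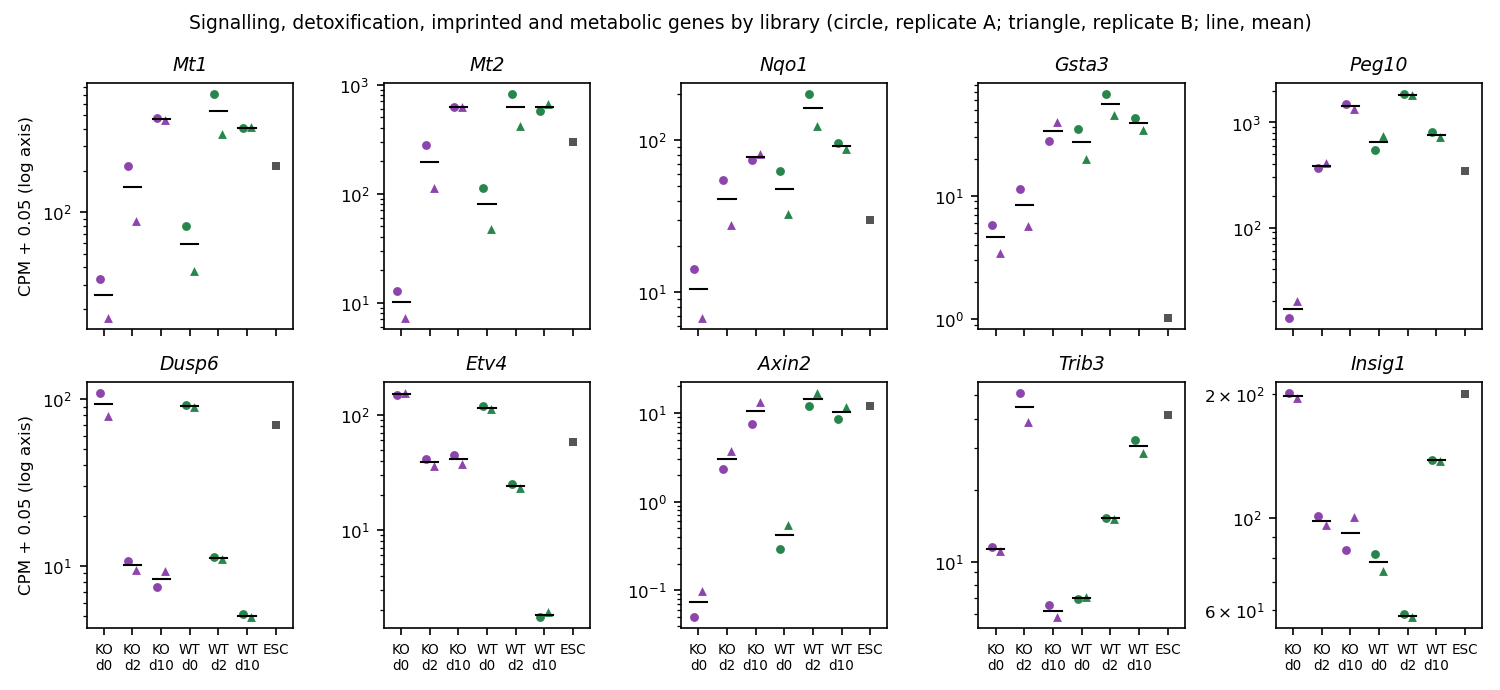
CPM plus 0.05 on a log axis for 10 genes in each library, with KO in purple, WT in green, the ESC library in grey and a line at each mean of 2. In KO cells Mt1, Mt2, Nqo1, Gsta3, Peg10 and Axin2 were higher at day 10 than at day 0 in both libraries, and Dusp6, Etv4, Trib3 and Insig1 lower; Peg10 was high in WT at all 3 times.

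Genes of other cell types were checked for cells that a culture from fibroblasts could hold. Among 10 endothelial genes 6 rose and 1 fell (median 3.51, or 3.07 at the bound with 1 gene left out). Pecam1, an adhesion molecule of endothelium that ESCs also express, rose from 0.146 and 0.0494 to 5.33 and 3.50 CPM (log2 fold change 5.40, SE 0.40, FDR 9.4e-05), and the VEGF receptor Flt1 from 0.0487 and 0.148 to 5.14 and 3.68 CPM. Sox18 and Esam rose by 3.07 and 3.96 on the log2 scale, and Vwf and Cdh5, from no count, were at least 13.7-fold and at least 4.57-fold higher. The angiopoietin receptor Tek fell from 62.0 and 92.0 to 28.9 and 24.7 CPM. The marker Emcn had no count in any of the 4 libraries and Tie1 had 0 to 3. The blood cell markers Tyrobp and Aif1 had no count and Ptprc, Lyz2 and Fcer1g had 0 to 2. Of 8 immune list genes Csf1r and Cd74 rose, with ratios of 33.7 (95% interval 5.55 to 1380) and 13.7 (3.37 to 120), and Laptm5 fell from 63.0 and 163 to 11.3 and 9.83 CPM (median 0.77, or 0.01 at the bound). Of 9 muscle genes none passed with edgeR or DESeq2, 1 rose with limma-voom and 3 were higher at an unadjusted p under 0.05, and Myod1, Myog and Actc1 had no count.

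Neural genes split: 4 of 19 rose and 2 fell (median 0.11, or -0.03 at the bound), where 9.93% of all genes tested rose and 5.19% fell. Sox1, a factor of neural progenitors, rose from 41.4 and 48.3 to 138 and 160 CPM (log2 fold change 1.73, SE 0.17, FDR 0.00034). The microtubule proteins Mtap2 and Mapt rose, Mapt from 7.11 and 9.08 to 86.7 and 78.1 CPM and Mtap2 from 2.29 and 2.02 to 20.8 and 22.4 CPM. Pax6 rose by 2.70 on the log2 scale to no more than 1.63 CPM, and the neuronal genes Tubb3, Dcx, Elavl3 and Nes did not pass. St8sia2 and Dpysl3 fell by 4.53 and 1.21 on the log2 scale. Among 14 genes of stratified epithelium 4 rose (median 0.92). Dsp, the desmosome protein desmoplakin, rose from 29.7 and 47.1 to 272 and 236 CPM, Sfn from 5.55 and 7.65 to 59.0 and 47.9 CPM and Pkp1 from 63.4 and 78.1 to 168 and 138 CPM, and Krt17 was at least 22.9-fold higher. Krt5, which defines the basal layer, had 1, 1, 0 and 0 counts. In the Hox list, which records position along the body axis, Hoxc8, Hoxc9 and Hoxc10 fell by 1.78, 1.47 and 2.29 on the log2 scale and Hoxa11 had a ratio of 15.0 (95% interval 2.21 to 640), out of 17 genes (median -0.20, or -0.22 at the bound).

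Single-library omissions lost the calls for 12 of the 24 genes named for these cell types (FDR 0.05 to 0.223). They were Cdh5, Tek, Csf1r, Cd74, Laptm5, Pax6, St8sia2, Dpysl3, Hoxc8, Hoxc9, Hoxc10 and Hoxa11, and the libraries were those of KO day 0 and day 10 and, for Cdh5, any library of KO day 2, WT day 0 or WT day 10 (for Hoxc9, WT day 10 replicate B).

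Cholesterol synthesis genes were lower. Of 18 tested 6 fell, the median log2 fold change was -0.86, and every member had a fitted change below 0 (highest -0.20). Both day 10 libraries lay below both day 0 libraries for 14 of the 18, where this held for 24.3% of all genes tested. Insig1, the sensor that restrains the pathway, fell from 201 and 195 to 83.9 and 100 CPM (log2 fold change -1.10, SE 0.15, FDR 0.0017). Cyp51 and Sqle, which encode a demethylase and an epoxidase of the pathway, fell from 172 and 254 to 78.1 and 74.2 CPM and from 75.6 and 90.7 to 54.8 and 43.8 CPM. Lss and Sc5d fell by 0.90 and 0.84. In WT cells 4 of the list rose and 1 fell, where 21.0% of all genes tested rose and 13.1% fell.

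Targets of ATF4, the factor of the amino acid and integrated stress response, were lower too. By edgeR 4 of 19 fell and none rose (median -0.80), where 5.19% of all genes tested fell. Both day 10 libraries lay below both day 0 libraries for 13 of the 19, where this held for 24.3% of all genes tested. Chac1, which degrades glutathione, fell from 10.2 and 7.65 to 2.11 and 1.39 CPM (log2 fold change -2.35, SE 0.35, FDR 0.0026), after a mean of 32.1 CPM at day 2. Trib3 stood at 11.4 and 11.0 CPM at day 0, averaged 44.9 CPM at day 2 and stood at 6.51 and 5.79 CPM at day 10. The mitochondrial folate enzyme Mthfd2 fell by 1.36 on the log2 scale and Aldh18a1, of proline synthesis, by 0.55. Mthfd2 was also the 1 of 14 one-carbon genes that passed (median -0.30). In glycolysis and hypoxia 4 of 22 rose (median 0.50), where 9.93% of all genes tested did. They were the glucose transporter Slc2a3, from 33.5 and 65.4 to 212 and 133 CPM, Gpi1, Pfkp and Car9. In the cell cycle list 1 of 22 passed, the checkpoint kinase Bub1, which fell by 0.74 (median -0.32). Of 20 CDK inhibitors and p53 targets 3 rose (median 0.01), where 9.93% of all genes tested did. They were the CDK inhibitor Cdkn2b, by 1.59, and the stress genes Gadd45a and Gadd45b, by 0.88 and 0.98 on the log2 scale. The calls for Insig1 and Chac1 held in every single-library omission, and those for the other 15 genes named as called among these metabolic and growth lists did not (FDR 0.0504 to 0.248, over omissions of KO day 0, KO day 10 and any WT library).

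**Figure D4:**
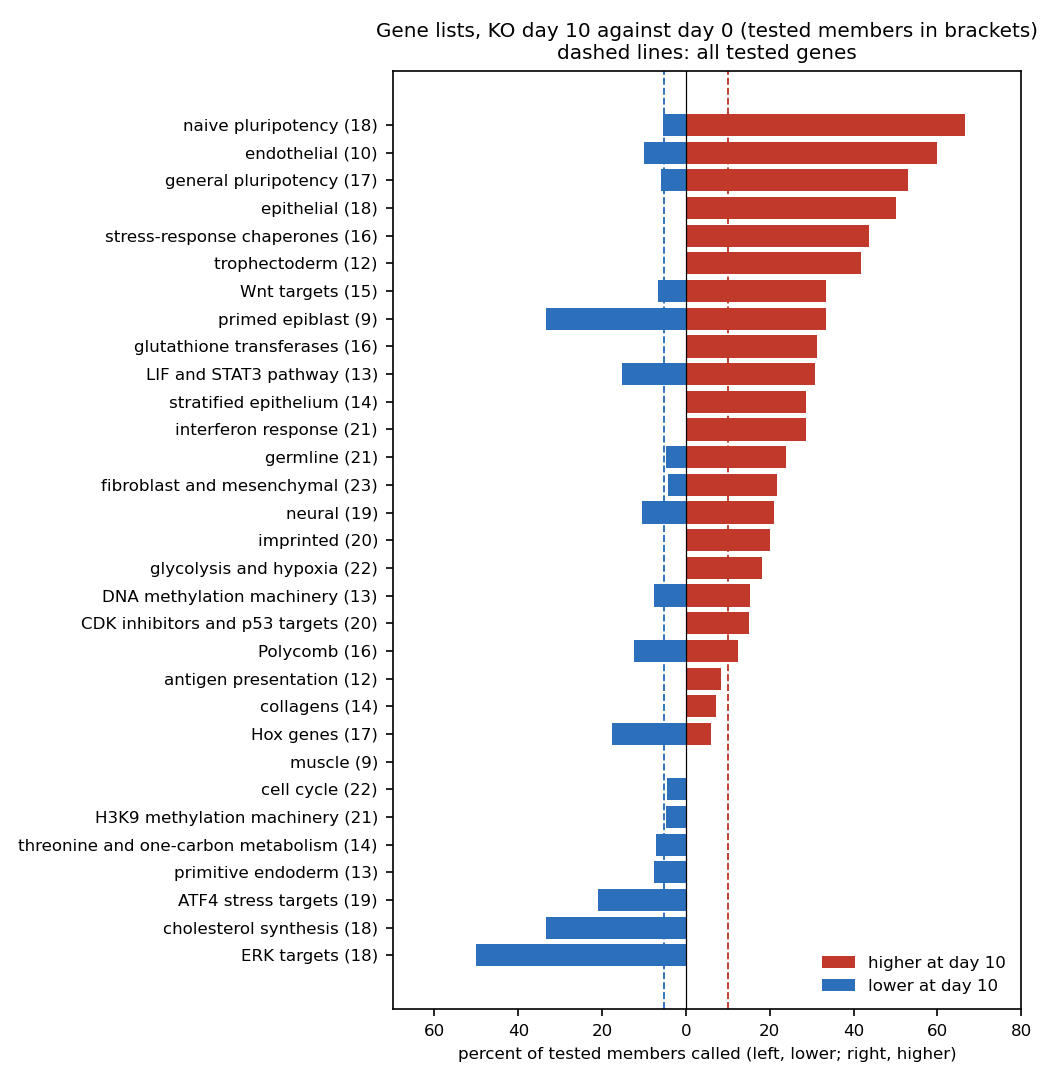
Percent of tested members of each gene list with at least 9 tested members that were called higher (red, right) or lower (blue, left) at day 10 in KO cells, with the number tested in brackets. Dashed lines mark all genes tested, 9.93% higher and 5.19% lower; naive pluripotency leads to the right with 12 of 18 and ERK targets to the left with 9 of 18.

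Some of the largest rises in the KO cells lay outside these lists. Wnt8a, a Wnt ligand of the early embryo, went from 0 and 0.197 to 22.3 and 20.2 CPM (log2 fold change 7.67, SE 0.83, FDR 0.00055). Chl1, a neural cell adhesion molecule, had 2 counts at day 0 and 443 at day 10, a ratio of 276 (95% interval 76.0 to 2290). Gap43, a growth cone protein, had a ratio of 279 (49.6 to 11100), the secreted protein Igfbp7 one of 274 (48.7 to 10900) and Cd200r3 one of 122 (41.4 to 596). By gain in mean CPM among the genes called higher, Peg10 was followed by Mt2 and by Anxa6, a calcium-dependent membrane-binding protein, which rose from 110 and 89.7 to 716 and 662 CPM (log2 fold change 2.79, SE 0.26, FDR 0.00025). Gpi1, Mt1 and Hspb1 came next, then the focal adhesion protein Tns3, from 198 and 277 to 634 and 544 CPM, and Txnip, an inhibitor of thioredoxin, from 311 and 270 to 636 and 628 CPM.

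The steepest falls included genes of other lineages and of adhesion. Calcrl, a receptor subunit for adrenomedullin, fell from 136 and 182 CPM to 0.310 in day 10 replicate A and 4.52 CPM in replicate B (log2 fold change -6.03, SE 0.86, FDR 0.0022). Pax7, a factor of muscle stem cells and neural crest, fell from 21.0 and 33.1 to 0.372 and 0.723 CPM (log2 fold change -5.61, SE 0.50, FDR 0.0002). Tcerg1l, Slc35d3, Cdh26 and Stac each fell by 5.12 to 5.59 on the log2 scale, and Fndc1, Krt13, Nrg1, Pcdh17, Otop1 and Tnfsf9 by 4.06 to 6.10. Oit1 went from 367 counts to 3, a ratio of 0.0102 (95% interval 0.00209 to 0.0300). By loss in mean CPM the amino acid transporter Slc38a5 stood first among the genes called lower, from 872 and 1519 to 95.9 and 123 CPM (log2 fold change -3.45, SE 0.44, FDR 0.0014), followed by the membrane protein Itm2b, from 1134 and 1506 to 522 and 680 CPM, and the arginine transporter Slc7a3, from 398 and 940 to 150 and 142 CPM. The membrane protein Emp1 and the ubiquitin ligase Rnf13 fell by 1.05 and 1.25 on the log2 scale. Foxo4, a forkhead transcription factor, fell from 624 and 422 to 201 and 189 CPM. Calls for Fndc1, Foxo4, Pcdh17, Slc7a3, Tnfsf9, Txnip, Tns3, Itm2b and Emp1 were lost when 1 library of KO day 0, KO day 10 or WT day 10 was left out and, for Itm2b and Emp1, also without any library of WT day 0 or WT day 2 (FDR 0.0501 to 0.270).

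The same course in WT cells, which shares no library with that in KO cells, gave 4889 called genes (34.1%), 3012 higher and 1877 lower. Of the 1422 genes that rose in KO, 790 (55.6%, and 26.2% of the WT list) also rose in WT and 117 fell there. Of the 743 that fell in KO, 366 (49.3%, and 19.5% of the WT list) also fell in WT and 106 rose there. The difference between the genotypes' changes passed its own test, the interaction of genotype with day, for 1798 genes (12.6%), with the KO change above the WT change for 910 (6.35%) and below it for 888 (6.20%). The balance of the directions depended on the setting: 1667 lay above and 951 below with the transcript length offset, 1002 and 1426 with limma-voom, and 1284 and 1462 with DESeq2. Without WT day 10 replicate B the count of 1798 became 850, without WT day 10 replicate A 935, without KO day 10 replicate B 990, without KO day 10 replicate A 1053, without KO day 0 replicate B 1143 and without WT day 0 replicate A 1177.

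Peg10 changed by 6.41 in KO and 0.24 in WT on the log2 scale, an interaction of 6.16 (SE 0.42, FDR 0.00015). Of the ERK targets Etv4 fell less in KO than in WT, where it went from 116 to 1.78 CPM (interaction 4.13, FDR 0.00013), and 4 of the 18 changed less negatively in KO with 1 the other way. Among naive genes Klf2, Tcfcp2l1 and Klf5 rose by more log2 units in KO, from lower day 0 levels, and Tbx3 and Zfp42 by fewer, with interactions of -4.12 and -3.30, as did Fgf4 (-2.67), which rose in WT. ATF4 targets had the KO change below the WT change in 8 of 19, among them Chac1 (interaction -5.0, FDR 0.00062) and Trib3 (-3.0, FDR 0.00043). The same held for 6 of 21 germline genes, with Ddx4 (-6.52, FDR 0.011) and Stag3 (-4.64). That germline count is partly set by the count filter, which genes with almost no counts in KO could pass through WT day 10. In 5 of 16 glutathione transferases the KO change was above the WT change, among them Gsta3 at 2.39 (FDR 0.034) and Gstp1 at 1.34 (FDR 0.023). Outside the lists, Wdfy4 rose from 0.682 and 0.592 to 17.4 and 19.6 CPM in KO and fell from 22.7 to 3.52 CPM in WT (interaction 7.54, FDR 7.7e-05). Galntl1, Sept3 and Prdm16 went the other way, with interactions of -7.73, -7.65 and -7.49. Leaving out 1 library ended the interaction calls for Klf2, Klf5, Tcfcp2l1, Tbx3, Zfp42, Ddx4, Gsta3 and Gstp1 (FDR 0.0526 to 0.115): for Tbx3 this was KO day 0 replicate B, for Ddx4 KO day 0 replicate A, and for the other 6 any of 3 or more libraries.

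**Figure D5:**
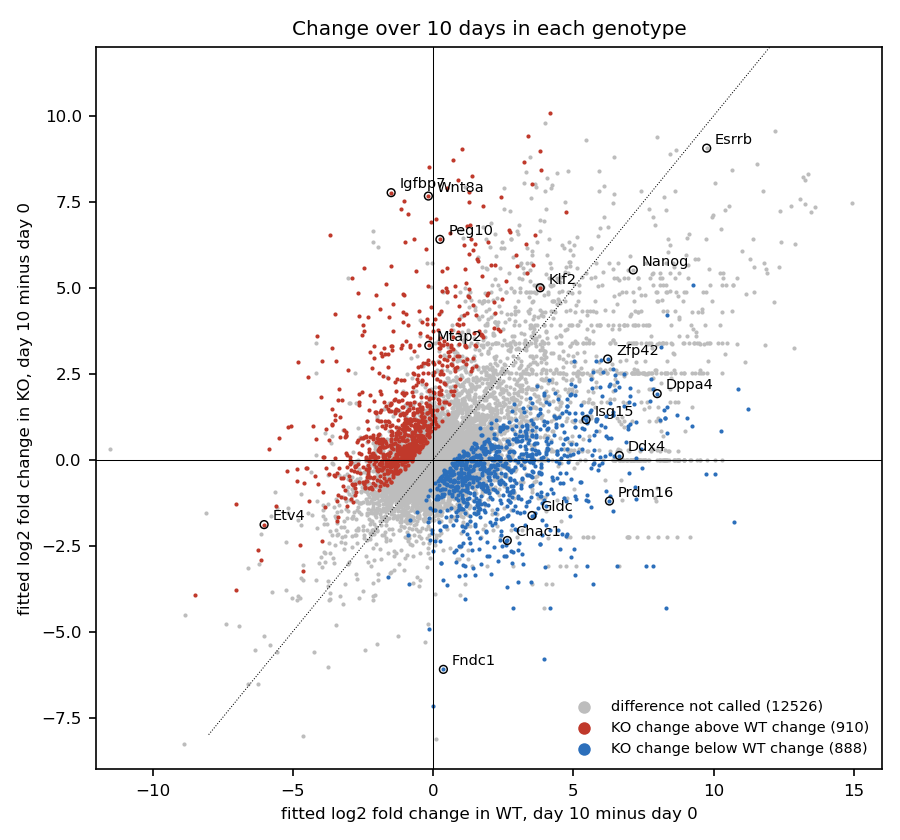
Fitted log2 fold change from day 0 to day 10 in KO (vertical axis) against that in WT (horizontal axis), 1 point per tested gene, with the 910 genes whose KO change was above the WT change in red and the 888 below it in blue. The dotted line marks equal change; Peg10 and Wnt8a lie near 0 on the WT axis and above 6 on the KO axis, and Etv4 fell in both and less in KO.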

How the data were processed

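Bulk RNA was sequenced from single-end TruSeq libraries of total RNA. Per the submitters' processing notes the reads were processed with Bowtie2, RSEM and mm9; no source used here gives versions or settings. The count column that the authors deposited holds expected counts from RSEM, in which a read that matches several genes is divided among them, so that 35.0 to 43.8% of values per library lay more than 0.005 from a whole number; they were rounded. The deposited TPM values entered no test. Of 20325 genes, 14324 passed edgeR's filterByExpr and held at least 99.9% of counts.

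One edgeR 4.0.16 quasi-likelihood model (R 4.3.3) was fitted to the 12 pre-iPSC libraries in 6 groups with TMM normalization, 6 residual degrees of freedom and a common coefficient of variation of 0.266; all groups share the spread estimate. P-values were Benjamini-Hochberg adjusted over all genes tested, with no fold threshold. The quasi-likelihood test reports no SE. Each SE given is the size of the log2 value divided by the square root of the test's F statistic. Alternatives used limma 3.58.1 (voom) and DESeq2 1.42.0. The ESC library has no replicate and entered no test. Replicate letters did not pair the compared groups: the A deviations of KO day 0 and KO day 10 correlated at -0.008. Named genes were KO-targeted Kdm3b, the reprogramming factors, the 15 largest changes each way at 5 CPM or more, the 8 largest gains and losses in CPM, up to 5 members per list by FDR and the 10 largest interactions each way; genes named beyond that were chosen after their values were seen. A few genes that the rule gives are not reported here. The comparison, lists and genes were chosen with earlier results of these data known. Lists were described by counts and medians and not tested.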

Additional observations from a re-analysis of the deposited data

Results flagged for a closer look

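The change over 10 days differed between KO and WT cells for 1798 genes by edgeR's test of the interaction of genotype with day. The values below are the interaction on the log2 scale, the KO change minus the WT change, for the genes named in the report that passed it, each at an adjusted p below the threshold of 0.05. Another 10 named genes passed with a group mean under 0.1 CPM, where the fitted value depends on the prior count and is not given. Leaving out 1 library ended the call of 31 of the 75 passing genes, with adjusted p of 0.0511 to 0.187. They were Aldh18a1, Cdh2, Cyp51, Ddx4, Fndc1, Gclm, Gsta3, Gstp1, Hand1, Isg15, Jarid2, Klf2, Klf5, Mest, Mgst1, Mt2, Mthfd2, Notum, Otx2, Rhox9, Slc30a2, Socs3, Spred1, Spry4, Sqle, Stat3, Tbx3, Tcfcp2l1, Tdgf1, Tns3 and Zfp42.

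Among pluripotency and reprogramming genes, the KO change lay above the WT change for Tcfcp2l1 (2.46), Tdgf1 (2.05), Klf2 (1.18), Klf5 (1.17) and Jarid2 (0.96). At day 10 the KO means were still 44.6% of the WT mean for Tcfcp2l1, 12.6% for Tdgf1, 41.0% for Klf2 and 41.8% for Klf5. For Jarid2 the KO mean was 106% of the WT mean. It lay below it for Dppa4 (-6.07), Mycl1 (-5.70), Tbx3 (-4.12), Zfp42 (-3.30), Fgf4 (-2.67) and Mycn (-1.31). In chromatin genes Suv39h1 stood at 1.22 and Mtf2 at -1.93. Of the LIF pathway Stat3 stood at 1.14 and Socs3 at 0.96. Wnt targets were split, with Notum at 2.47, Tcf7 at -2.17, Tnfrsf19 at -4.46 and Nkd2 at -4.06, as were ERK targets, with Etv4 at 4.13, Etv1 at 2.11, Spry4 at 1.70, Spred1 at 1.27 and Spry1 at -2.61.

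Epithelial, mesenchymal and lineage genes above 0 were Esrp1 (1.92), Zeb2 (2.56), Vim (2.22), Cdh2 (4.23), Mtap2 (3.48), Mapt (2.71), Sox1 (3.14), Sox18 (4.67), Esam (3.96), Sfn (2.16) and Pkp1 (2.71). Those below 0 were Pou3f1 (-3.50) and Hoxc10 (-3.58). Cdh2, N-cadherin, had 54.0 and 117 CPM at day 0 and 65.7 and 45.2 CPM at day 10 in KO (adjusted p 0.53) and fell from 90.5 to 3.13 CPM in WT.

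Germline and interferon genes lay below 0, with Ddx4 at -6.52, Stag3 at -4.64, Isg15 at -4.29 and Irf7 at -3.15. Genes with almost no counts in KO, such as Ddx4, could be tested through their WT counts, so their direction is partly set by the count filter. Detoxification genes lay above 0, with Mt2 at 2.99, Gsta3 at 2.39, Mgst1 at 1.43, Gstp1 at 1.34 and Gclm at 1.29. The imprinted genes stood at 6.16 for Peg10, 1.15 for Mest and -3.05 for Igf2. Metabolic genes lay below 0, with Chac1 at -5.0, Trib3 at -3.0, Mthfd2 at -2.55, Insig1 at -1.92, Cyp51 at -1.74, Sqle at -1.41 and Aldh18a1 at -1.02. Of other genes, Wdfy4 stood at 7.54, Ptn at 7.14, Anxa6 at 2.97, Tns3 at 2.02 and Rnf13 at 1.61, and Galntl1 stood at -7.73, Sept3 at -7.65, Prdm16 at -7.49 and Fndc1 at -6.47.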

How the results depend on the processing

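No gene called in KO cells changed sign as a call under any alternative, and the counts moved. The main counts were 1422 genes higher, 743 lower and 1798 in the interaction. Spread estimated from the compared libraries alone gave 662 and 220, and from the 6 KO libraries 624 and 180; these fits gave 110 and 100 calls of named genes, against 182. DESeq2 gave 1221 lower and 2746 in the interaction. The replicate block over all days gave 1380 lower and 2942 in the interaction; the letters pair days 0 and 2 but not day 10, so it was not used, and it ended no call of a named gene. The next settings were chosen after seeing the data. A replicate block at days 0 and 2 only gave 3633, 3466 and 6388. Letter A alone at those days gave 3293, 2595 and 4459, and letter B alone 3611, 3382 and 4563. The transcript length offset gave 1510 lower and 2618 in the interaction. Leaving out 1 library in turn gave 813 to 1497 higher, 220 to 795 lower, 850 to 1979 in the interaction and 111 to 180 named calls; a lone library is then assumed to vary like the other groups. The RLE and upper-quartile factors, limma-voom and both filter settings stayed within 1.5 times of the main counts. Over single genes, 5920 alternatives left the outcome, called or not, as in the main fit, 723 lost a call and 21 gained one. In 11 the gene was not called in the main fit and its fitted value changed sign. The cause of these shifts was not tested. Depth limits genes at day 0, where a bound rests on 3 counts over 2 libraries.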
